A study of Sus scrofa with 35 samples.

Results

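The small heat shock proteins of skeletal muscle (HSPB1, HSPB2, HSPB3, CRYAB, HSPB6, HSPB7 and HSPB8) and their co-chaperone BAG3 were examined in Longissimus dorsi, the long muscle of the back, of growing pigs. Members were the non-control probes whose gene name in the scanner files is one of these 8 symbols, which gave 12 of 60305 probes: 6 for BAG3, 3 for CRYAB and 1 each for HSPB6, HSPB7 and HSPB8. The array design carries older names for the others, so 12 more probes were assigned through the RefSeq accession or gene ID in the same files: 2 for HSPB1 (called Hsp27 there), 1 for HSPB2, 1 for HSPB3, 1 for HSPB6 and 7 for HSPB8. All 8 genes were then represented, by 24 probes in all, and counts are given for both sets.

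RNA came from 35 castrated male pigs, one array each: Creole at thermoneutrality (TN, 6) and under heat stress (HS, 6), F1, the cross of Creole and Large White, at TN (6) and under HS (5), and Large White at TN (6) and under HS (6). TN was 24 °C and HS 30 °C by the labels, but the growth protocol speaks of 5 days at 32 °C. The methods of the study also give 32 °C, with some HS pigs slaughtered before the full 5 days. Where the 30 °C of the labels comes from was not settled here. Per the methods of the study, TN muscle was taken before the temperature was raised and HS muscle afterwards, from pigs of different pens, and the temperature cannot be told apart from slaughter day, age and pen. The pigs of a breed came from a few groups of littermates, which the labels do not identify.

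Small heat shock proteins are chaperones without ATPase activity that hold unfolding proteins in a state from which they can be refolded or degraded. In striated muscle they are abundant at the Z-disc, the anchor of the contractile filaments, where CRYAB and HSPB1 bind desmin, actin and titin. HSPB8 works as a complex with BAG3, which brings HSPA8 and the ubiquitin ligase STUB1 to damaged filamin and sends it to autophagy, a route known as chaperone-assisted selective autophagy. Several of these genes, among them HSPB1, CRYAB, HSPB8 and BAG3, are targets of heat shock factor 1.

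Each probe is a single DNA strand of 60 bases. The sequences of 3 of them are shown because they lie on the same conserved stretch of 3 different genes, which bears on how far a probe tells the family members apart. Read 5′ to 3′, and with the bases shared by all 3 in capitals, they were as follows.
CRYAB O6250: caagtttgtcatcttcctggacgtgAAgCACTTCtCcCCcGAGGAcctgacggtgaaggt
HSPB1 A_72_P679687: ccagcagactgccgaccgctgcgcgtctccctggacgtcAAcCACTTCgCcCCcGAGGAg
HSPB6 O11519: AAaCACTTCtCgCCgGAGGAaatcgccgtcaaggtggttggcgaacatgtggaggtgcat
Over the 21 bases that the 3 probes have in common, 16 were identical. The CRYAB probe matched the HSPB1 probe at 33 of 46 aligned bases (71.7%) and the HSPB6 probe at 26 of 35 (74.3%), and its longest run shared with either was 10 bases. CRYAB is named for O6250 by the scanner files alone. Its bases read more like CRYAA, the lens crystallin closest to CRYAB, and no transcript sequence was used here to check this, so its target is uncertain. Over the 35 arrays O6250 followed the other 2 CRYAB probes with Pearson r of 0.97 each.

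The probe of HSPB3, the gene nearest to the threshold in the temperature comparison below, and the brighter probe of HSPB1, the gene nearest to it between Creole and Large White, are given for the same reason.
HSPB3 A_72_P290034: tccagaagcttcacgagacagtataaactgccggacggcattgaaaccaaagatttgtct
HSPB1 A_72_P088101: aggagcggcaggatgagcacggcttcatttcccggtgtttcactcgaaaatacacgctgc
Probes of 1 gene are not independent of each other. BAG3 O2952 shares 57 bases in a row with A_72_P544072, HSPB8 O10696 shares 54 with A_72_P564354 and 34 with A_72_P556950, and HSPB8 A_72_P346048 and A_72_P561444 share 45. Among probes not assigned to a member, 1 shares at least 20 bases in a row with a member probe: it carries the whole of the BAG3 probe O2952 and has no gene symbol.

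All 24 probes passed the filter on dim probes, which kept 41517 probes (well above background in 75% or more of the arrays of some group). All but 1 of the 24 were well above background on all 35 arrays, the exception being BAG3 A_72_P120811 on 34. Levels are log2 intensities after quantile normalisation, on which a difference of 1 is a 2-fold ratio. The array gives no level that can be set against another probe's, so each gene was compared only with itself. Each gene is described by its brightest kept probe.

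At the level of whole arrays, 58.4 to 75.9% of probes were well above background, and the 75th percentile of the unnormalised intensity was brighter in HS (mean 9.24 on the log2 scale) than in TN (9.05). The 9 of 10 skeletal muscle markers that could be measured were bright in every sample, with a mean level per array between 18.07 and 18.51. By the brightest probe, 1 of them, MYH2, was lower in HS (8 of 9 with scaling to the 75th percentile and 6 of 9 with median scaling). None of the other 5 MYH2 probes was called lower. Other probes were called lower for MYH4 (6 of 8), MYH1 (3 of 7), TNNT3 (3 of 4) and CASQ1 (1 of 3), and none for ACTA1, CKM, MYBPC1 and TNNC2. MYH4, MYH1 and TNNT3 are also on the fast fibre list. Some markers of other cells moved with the temperature, where 7.73% of all kept probes were called higher and 8.30% lower. Of 9 leukocyte markers 3 were higher in HS, LYZ (2.26), CSF1R (0.93) and AIF1 (0.89). By their brightest probes CD68 (0.74), CD163 (0.70), CD14 (0.23), CD3E (0.18), CD79A (0.02) and PTPRC (-0.02) were not called. The mean leukocyte level per array ran from 7.38 to 9.88 in TN and from 8.63 to 10.16 in HS. Of 7 connective tissue markers 3 were higher (11.89 to 13.59 and 13.03 to 13.80). Of 9 fast fibre markers 3 were lower (9 of 9 with scaling to the 75th percentile). In other lists the blood marker HBB (-1.21, adjusted p = 0.000536) and the endothelial VWF (-0.36, adjusted p = 0.00226) were lower. SLC4A1, also a blood marker, lay above 0 and was not called (0.37, adjusted p = 0.123). The slow fibre CASQ2 (0.86, adjusted p = 0.00405) was higher, but it was the only 1 of 9 slow fibre markers called. The median of those 9 was -0.06. In whole muscle, fewer cells of a type and less RNA per cell cannot be told apart, and the part these markers have in the values below was not tested. The covariate fits given below cannot test it, since the leukocyte mean and array brightness themselves moved with HS. With the leukocyte mean as a covariate 1874 of all kept probes were called between HS and TN, against 6654 without it.

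**Figure D1:**
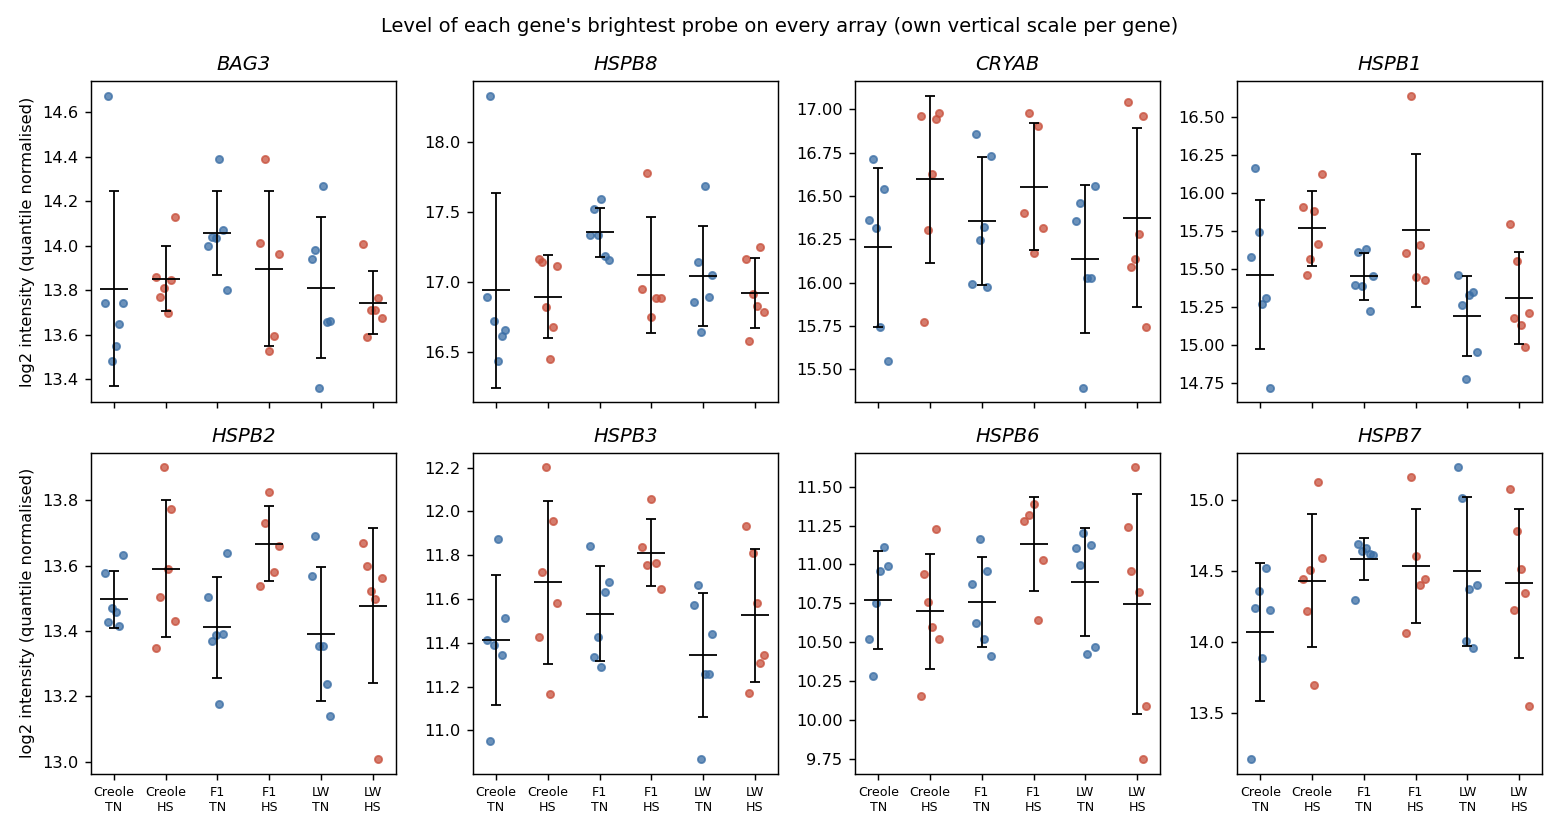
Quantile-normalised log2 intensity of the brightest probe of each of the 8 genes on the 35 arrays, by breed and temperature (LW, Large White). Points are arrays, blue for TN and red for HS, horizontal bars are group means and whiskers are 1 SD with n = 5 for F1 HS and 6 for the other groups. The vertical scale differs between genes, and the TN and HS points overlap in every panel.

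The first question was whether the small heat shock protein genes responded to the challenge over the 3 breeds. None of the 24 probes was called at a limma adjusted p below 0.05, nor any of the 12 named by gene symbol, against 16.0% of all kept probes (7.73% higher and 8.30% lower in HS). At an unadjusted p below 0.05, 5 of the 24 (2 of the 12) passed, 2 probes of CRYAB (A_72_P386858 and the uncertain O6250) and 1 each of HSPB1, HSPB2 and HSPB3, against 30.7% of all kept probes. The median difference of HS minus TN over the 24 probes was -0.09, beside -0.02 over all kept probes. The 95% intervals of the 24 differences ran from -0.59 to 0.58 on the log2 scale. The direction differed between genes: the 10 probes above 0 were all those of CRYAB, HSPB1, HSPB2, HSPB3, HSPB6 and HSPB7, and the 14 below 0 were all those of BAG3 and HSPB8. This split depended on the scaling, since with spike-in controls as the reference 13 probes lay above 0 and the brightest BAG3 probe was at 0.01, and with scaling to the 75th percentile HSPB7 was at -0.03.

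CRYAB, alpha-B crystallin, which binds desmin and titin under strain, ran from 15.39 to 16.86 in the 18 TN arrays, with a median of 16.32. In the 17 HS arrays it ran from 15.74 to 17.04, with a median of 16.40. Most HS values thus lay inside the TN range, but several, from each of the breeds, lay above the highest TN array. Of the 17 HS arrays, 11 were above the TN mean of their breed. The difference was 0.28 (SE 0.14, limma adjusted p = 0.170), and A_72_P386858 gave 0.31 (adjusted p = 0.105). O6250, whose target is uncertain, gave 0.30 (adjusted p = 0.139). Within the 5 slides it ran from -0.30 to 0.69. Without Creole HS replicate 2, the probe A_72_P386858 was called (0.36, adjusted p = 0.0486). In a fit with the mean of the leukocyte markers as a covariate the difference of the brightest probe was 0.01 (adjusted p = 0.988), and in one with array brightness it was 0.09 (adjusted p = 0.759).

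HSPB1, or HSP27, a chaperone that also steadies actin filaments, ran from 14.72 to 16.16 in TN (median 15.37) and from 14.98 to 16.64 in HS (median 15.56). The highest array of all was F1 HS replicate 2, and the lowest was a Creole TN array. The difference was 0.24 (SE 0.11, adjusted p = 0.131) by the brighter probe and 0.19 (SE 0.13, adjusted p = 0.324) by the other. It was called in the fit with array weights (0.29, adjusted p = 0.0460), and corrected for the leukocyte mean it was 0.14 (adjusted p = 0.565). Over the slides it ran from -0.06 to 0.97, the highest value coming from the slide with 1 HS array.

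HSPB2 and HSPB3 form a complex of their own that is made as muscle cells differentiate. HSPB2 had the narrowest spread of the 8 genes, with a within-group SD of 0.18 beside a median of 0.23 over all kept probes. It ran from 13.14 to 13.69 in TN (median 13.42) and from 13.01 to 13.90 in HS (median 13.58), and 14 of 17 HS arrays were above the TN mean of their breed. The 4 highest arrays were HS, but so was the lowest, Large White HS replicate 5. The difference was 0.14 (SE 0.06, adjusted p = 0.107) and lay above 0 in all 5 slides, from 0.05 to 0.24. HSPB2 was called without Large White HS replicate 5 (0.17, adjusted p = 0.0313), with array weights (0.17, adjusted p = 0.0221), with array brightness as a covariate (0.21, adjusted p = 0.0401) and with spike-in scaling (0.22, adjusted p = 0.0232). With scaling to the 75th percentile it was 0.07 (adjusted p = 0.426).

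HSPB3 came nearest to the threshold. It ran from 10.87 to 11.87 in TN (median 11.42) and from 11.17 to 12.20 in HS (median 11.72). Again 14 of 17 HS arrays were above the TN mean of their breed, while the ranges overlapped over most of their length. The difference was 0.24 (SE 0.09, adjusted p = 0.0663) and was above 0 in all 5 slides, from 0.01 to 0.48. It was called with median scaling (0.30, adjusted p = 0.0205), array weights (0.25, adjusted p = 0.0413) and spike-in scaling (0.38, adjusted p = 0.00681). Leaving out 1 array also called it for 4 of the 35 arrays. The values were 0.26 (adjusted p = 0.0403) without Large White HS replicate 2 and 0.26 (adjusted p = 0.0477) without Large White TN replicate 2. They were 0.27 without replicate 4 of Creole TN (adjusted p = 0.0400) or of Creole HS (adjusted p = 0.0341). Corrected for the leukocyte mean it was 0.22 (adjusted p = 0.235).

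HSPB6 and HSPB7 lay close to 0. HSPB6, or HSP20, known for its phosphorylation by protein kinase A in heart and vessels, ran from 10.28 to 11.20 in TN (median 10.91) and from 9.75 to 11.63 in HS (median 10.94). The HS arrays were thus spread wider on both sides, with both extremes in Large White HS. Its difference was 0.04 (SE 0.14, adjusted p = 0.862), with a 95% interval from -0.23 to 0.32, and ran from -0.51 to 0.39 over the slides. HSPB7, a cardiovascular member that binds filamin C, ran from 13.18 to 15.23 in TN (median 14.39) and from 13.55 to 15.16 in HS (median 14.44). Its difference was 0.08 (SE 0.14, adjusted p = 0.754), with an interval from -0.21 to 0.37 and values from -0.25 to 0.45 over the slides.

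HSPB8 and BAG3 lay below 0 in every probe. HSPB8, the small heat shock protein of the BAG3 complex, ran from 16.43 to 18.33 in TN (median 17.09) and from 16.45 to 17.78 in HS (median 16.88). A single array, Creole TN replicate 2, held the maximum, and the remaining values of the 2 temperatures covered the same range. The difference was -0.15 (SE 0.13, adjusted p = 0.440), and the 8 probes gave -0.27 to -0.15, with adjusted p from 0.234 to 0.452. BAG3 ran from 13.36 to 14.68 in TN (median 13.87) and from 13.53 to 14.39 in HS (median 13.77), with the same Creole TN array on top. Its difference was -0.06 (SE 0.09, adjusted p = 0.717), and the 6 probes gave -0.18 to -0.06, with adjusted p from 0.197 to 0.717. In both genes 6 of 17 HS arrays were above the TN mean of their breed. Slides 1 to 4 gave values below 0 for both (-0.47 to -0.09 for HSPB8 and -0.18 to -0.02 for BAG3), and slide 5, which holds 1 HS array, gave values above 0.

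**Figure D2:**
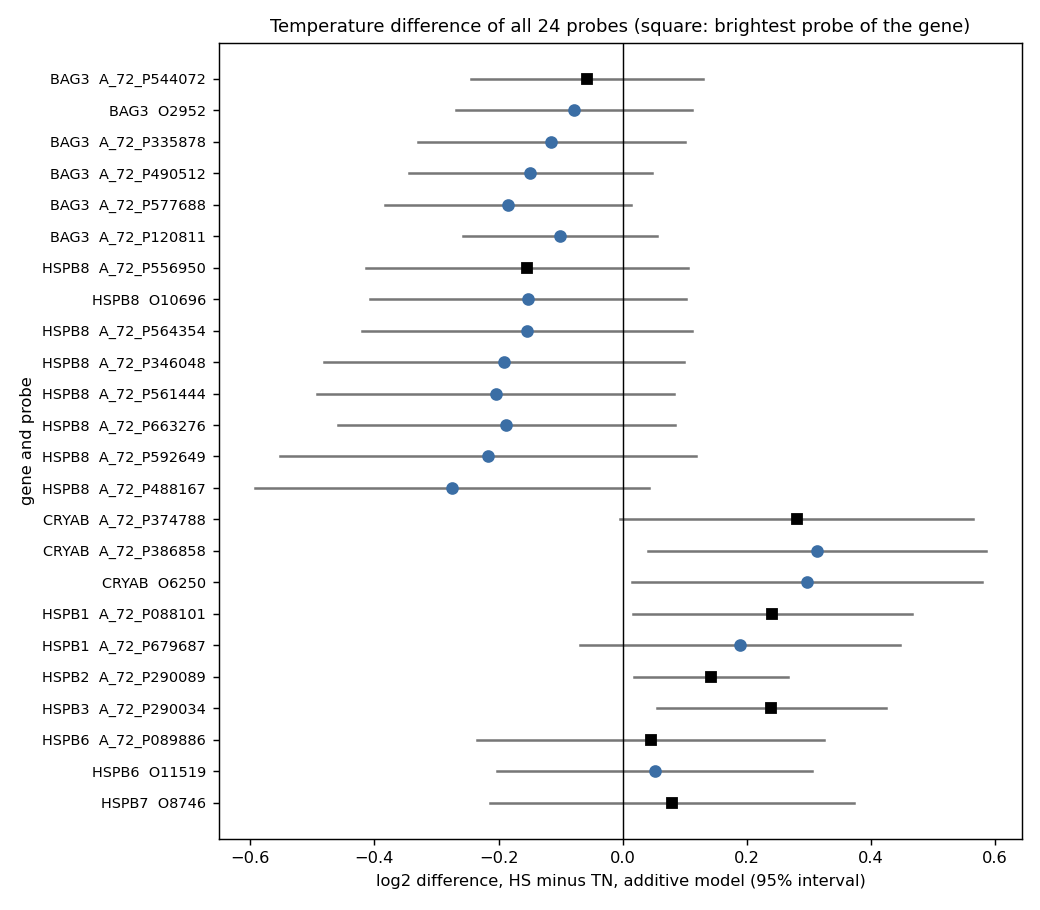
Difference of HS minus TN in log2 intensity, corrected for breed, for each of the 24 probes with its 95% interval, grouped by gene; squares mark the brightest probe of a gene and circles the others. The BAG3 and HSPB8 probes lie to the left of 0 and those of the other 6 genes to the right, and 5 of the 24 intervals leave out 0.

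A further question was whether the breeds differed in this response. In the test of the breed by temperature interaction none of the 24 probes was called (smallest adjusted p = 0.963) where 0% of all kept probes were called, and none passed an unadjusted p below 0.05, against 3.84% of all kept probes. In Creole pigs 0 of 24 probes were called, against 1.91% of all kept probes, and 1 of the 24, the dim BAG3 probe A_72_P120811, passed an unadjusted p below 0.05 (-0.30, adjusted p = 0.161), against 21.5% of all kept probes. In F1 and in Large White pigs 0 of 24 were called, against 0.00482% of all kept probes in each, and 1 probe (HSPB2 in F1, 0.26, adjusted p = 0.511) and 0 probes passed the unadjusted threshold, against 8.3% and 16.6% of all kept probes. Single genes nevertheless had quite unlike values in the 3 breeds, with intervals that overlapped. HSPB6 was 10.76 ± 0.29 (SD, n = 6) in F1 TN and 11.13 ± 0.30 (SD, n = 5) in F1 HS, a difference of 0.37 with a 95% interval from -0.12 to 0.87. The same gene differed by -0.07 in Creole (interval -0.54 to 0.40) and by -0.14 in Large White (interval -0.61 to 0.33). HSPB7 differed by 0.36 in Creole, from 14.07 ± 0.48 (SD, n = 6) to 14.43 ± 0.47 (SD, n = 6), and by -0.05 in F1 and -0.08 in Large White. CRYAB, HSPB1, HSPB2 and HSPB3 lay above 0 in all 3 breeds, between 0.09 and 0.39, and HSPB8 lay below 0 in all 3, between -0.30 and -0.05. In Large White this direction of HSPB1 and CRYAB depended on the processing, since HSPB1 was at -0.02 with scaling to the 75th percentile and CRYAB at -0.004 with array brightness as a covariate, and the direction of HSPB8 turned in Creole with slide as a block (0.004) and with array weights (0.06) and in Large White with spike-in scaling (0.01).

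The order of the 6 group means was read gene by gene, with each level as mean ± SD over 6 arrays, or 5 in F1 HS. CRYAB, HSPB1, HSPB2 and HSPB3 had an HS group on top (Creole HS for the first pair and F1 HS for the second pair) and Large White TN at the bottom. CRYAB stood at 16.20 ± 0.46 in Creole TN and 16.60 ± 0.48 in Creole HS, at 16.35 ± 0.37 and 16.55 ± 0.36 in F1, and at 16.14 ± 0.43 and 16.37 ± 0.52 in Large White. HSPB2 was 13.50 ± 0.09 and 13.59 ± 0.21 in Creole TN and HS, 13.41 ± 0.15 and 13.67 ± 0.12 in F1, and 13.39 ± 0.21 and 13.48 ± 0.24 in Large White. F1 was thus the breed in which the TN and HS means of HSPB2 lay farthest apart, although the interaction was not called. In HSPB3 the pairs of TN and HS were 11.41 ± 0.30 and 11.68 ± 0.37 for Creole, 11.53 ± 0.22 and 11.81 ± 0.15 for F1, and 11.34 ± 0.28 and 11.52 ± 0.30 for Large White. The HSPB1 levels in Creole and Large White are given with the breeds below, and those in F1 were 15.45 ± 0.15 in TN and 15.75 ± 0.50 in HS.

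BAG3, HSPB7 and HSPB8 had F1 TN on top, and HSPB6 had F1 HS on top and Creole HS at the bottom. For BAG3, TN and HS were 13.81 ± 0.44 and 13.85 ± 0.15 in Creole, 14.06 ± 0.19 and 13.90 ± 0.35 in F1, and 13.81 ± 0.32 and 13.74 ± 0.14 in Large White. For HSPB8 they were 16.94 ± 0.70 and 16.89 ± 0.29 in Creole, 17.35 ± 0.18 and 17.05 ± 0.41 in F1, and 17.04 ± 0.36 and 16.92 ± 0.25 in Large White. The SD of Creole TN was the widest of the 6 in both genes, and that group holds the array that topped both. HSPB7 was 14.59 ± 0.15 in F1 TN and 14.54 ± 0.40 in F1 HS, beside 14.50 ± 0.52 and 14.42 ± 0.52 in Large White. HSPB6 was 10.77 ± 0.32 in Creole TN and 10.70 ± 0.37 in Creole HS, beside 10.89 ± 0.35 and 10.75 ± 0.71 in Large White. The whole span of the group means was 0.28 in HSPB2 and between 0.31 and 0.58 in the others, beside within-group SDs of 0.18 in HSPB2 and 0.28 to 0.44 in the others. Neighbours in the order differed by less than the smaller of their SDs, except 1 pair in HSPB2 and 1 pair in HSPB8.

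The last question was the difference between breeds over both temperatures. Between Creole and Large White 0 of 24 probes were called, against 3.64% of all kept probes, and 2 passed an unadjusted p below 0.05, against 15.4%. These were the 2 HSPB1 probes. HSPB1 was 15.46 ± 0.49 (SD, n = 6) in Creole TN and 15.77 ± 0.25 (SD, n = 6) in Creole HS, and 15.19 ± 0.26 (SD, n = 6) and 15.31 ± 0.30 (SD, n = 6) in the matching Large White groups. The difference of 0.37 (SE 0.13) had a limma adjusted p of 0.131, and the other probe gave 0.36 (adjusted p = 0.217). It was called without Creole TN replicate 6, the lowest Creole array (0.44, adjusted p = 0.0435).

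Between F1 and Large White 0 of 24 probes were called, against 0.525% of all kept probes, and 4 passed an unadjusted p below 0.05, namely both HSPB1 probes, HSPB3 and BAG3 O2952, against 10.5% of all kept probes. All 24 probes were higher in F1, with a median of 0.22 beside 0.00 over all kept probes. They stand for 8 genes, whose probes are not independent, and the share of all kept probes above 0 was not taken. The direction held in all 24 with scaling to the 75th percentile or to the median, in 23 with normexp background correction or array weights, in 21 on the TN arrays alone and in 18 with spike-in scaling. HSPB1 differed most among the brightest probes, by 0.35 (SE 0.14, adjusted p = 0.308), followed by HSPB3 at 0.24 (SE 0.11, adjusted p = 0.454), HSPB8 at 0.23 (SE 0.16, adjusted p = 0.677) and BAG3 at 0.20 (SE 0.11, adjusted p = 0.555). With spike-in scaling HSPB2, HSPB6 and HSPB7 were below 0, between -0.05 and -0.02. Between F1 and Creole 0 of 24 probes were called, against 0.477% of all kept probes, and none passed an unadjusted p below 0.05, against 8.88%. Here too most probes, 21 of the 24, were higher in F1, with a median of 0.15 beside -0.005 over all kept probes. The largest values there were HSPB7 at 0.32 (SE 0.18, adjusted p = 0.664) and HSPB8 at 0.29 (SE 0.16, adjusted p = 0.635). The 3 breed comparisons share their arrays.

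**Figure D3:**
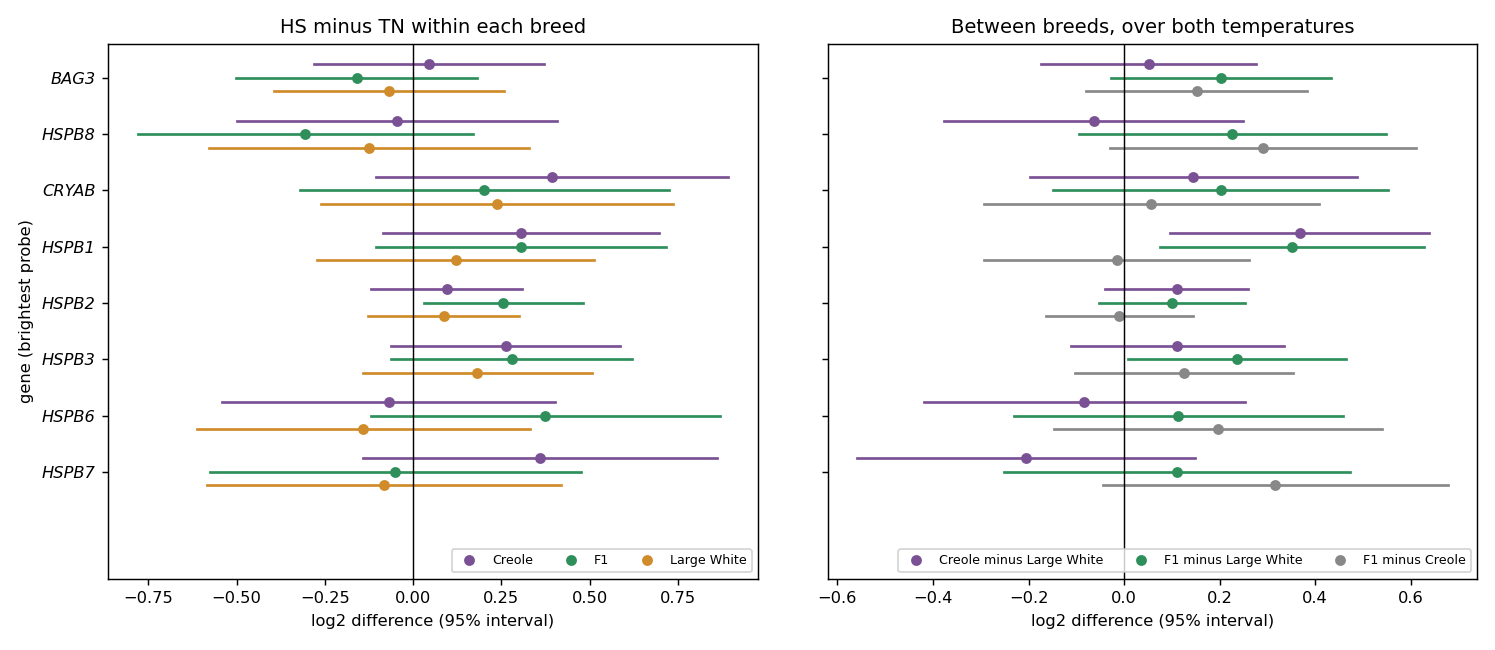
Log2 differences with 95% intervals of the brightest probe of each gene: HS minus TN within each breed (left) and between breeds over both temperatures (right), each comparison in its own colour. The intervals include 0 except those of HSPB2 within F1 (0.26), of HSPB1 in both comparisons against Large White (0.37 in Creole, 0.35 in F1) and of HSPB3 in F1 minus Large White (0.24).

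Although the groups were not separated, the levels of several members moved together from one array to the next. The 28 pairs of genes were compared over the 35 arrays, which share slides, litters and group differences and are therefore not fully independent. The tightest pair was BAG3 and HSPB8, the 2 partners of the autophagy complex, with a Pearson r of 0.87 and a Spearman rho of 0.81 (permutation p = 1e-05 each, the smallest that 100000 permutations can give, and 0.00028 after Benjamini-Hochberg adjustment over the 28 pairs). After the group means were subtracted r was 0.86, and within slides 1 to 4 (8 arrays each) it ran from 0.86 to 0.94. Without the 2 arrays farthest from the BAG3 median, Creole TN replicate 2 and F1 HS replicate 2, it was 0.78. These 2 arrays held the 2 highest HSPB8 levels, 18.33 and 17.78, and also topped BAG3 (14.68 and 14.39, the latter tied with an F1 TN array), and came from different breeds and temperatures but from the same slide, slide 1.

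**Figure D4:**
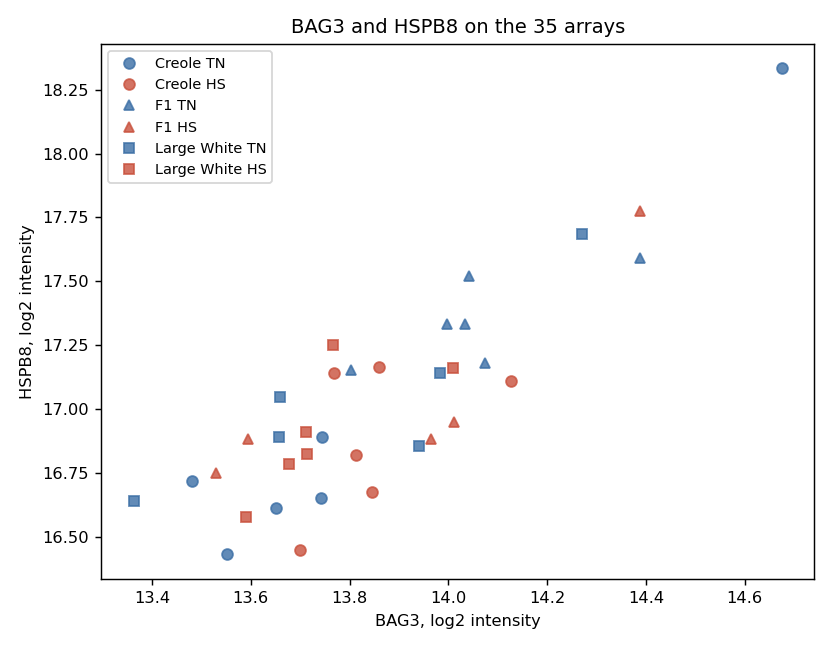
Log2 intensity of BAG3 (horizontal) and HSPB8 (vertical) on the 35 arrays, with breed by symbol and temperature by colour (blue TN, red HS). The arrays lie along 1 band (Pearson r 0.87), with TN and HS arrays mixed along it and a Creole TN array at its upper end.

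The BAG3 probes themselves moved together at r of 0.78 to 0.97, apart from the dim probe A_72_P120811, whose r with the others was 0.02 to 0.19. The 8 HSPB8 probes did so at 0.86 to 0.99. Another pair was CRYAB and HSPB1, both binders of the cytoskeleton (r = 0.64, rho = 0.63, permutation p = 3e-05 and 7e-05, adjusted p = 0.000373 and 0.00098). Its r was 0.52 without the 2 arrays farthest from the CRYAB median and 0.39 to 0.86 within slides 1 to 4. The next was HSPB2 and HSPB3, the subunits of 1 complex (r = 0.61, rho = 0.60, permutation p = 4e-05 and 0.00019, adjusted p = 0.000373 and 0.00177). Its r was 0.56 without the 2 arrays farthest from the HSPB2 median and 0.46 to 0.77 within slides 1 to 4. In contrast, CRYAB and HSPB2, whose gene models overlap in the RefSeq annotation of Sscrofa11.1, had an r of 0.02 over the same arrays. BAG3 also moved with HSPB1 (r = 0.55, rho = 0.41, permutation p = 0.00087 and 0.01408, adjusted p = 0.00609 and 0.0563), at 0.63 after the group means were subtracted, which is above the 0.59 of CRYAB and HSPB1 and the 0.52 of HSPB2 and HSPB3. Its r was 0.33 without the 2 arrays farthest from the BAG3 median and ran from -0.05 to 0.70 within slides 1 to 4. HSPB1 and HSPB8 were at 0.44, and at 0.62 after that subtraction. BAG3 had values near 0 with HSPB2 (-0.07) and HSPB3 (-0.06), and -0.15 with HSPB6. Of the 28 pairs, 8 passed an adjusted permutation p of 0.05 by Pearson's r and 6 by Spearman's rho. These permutations compare a pair with no correlation at all. The share of pairs of other genes that would pass was not computed, so the counts do not set the family apart from other genes.

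**Figure D5:**
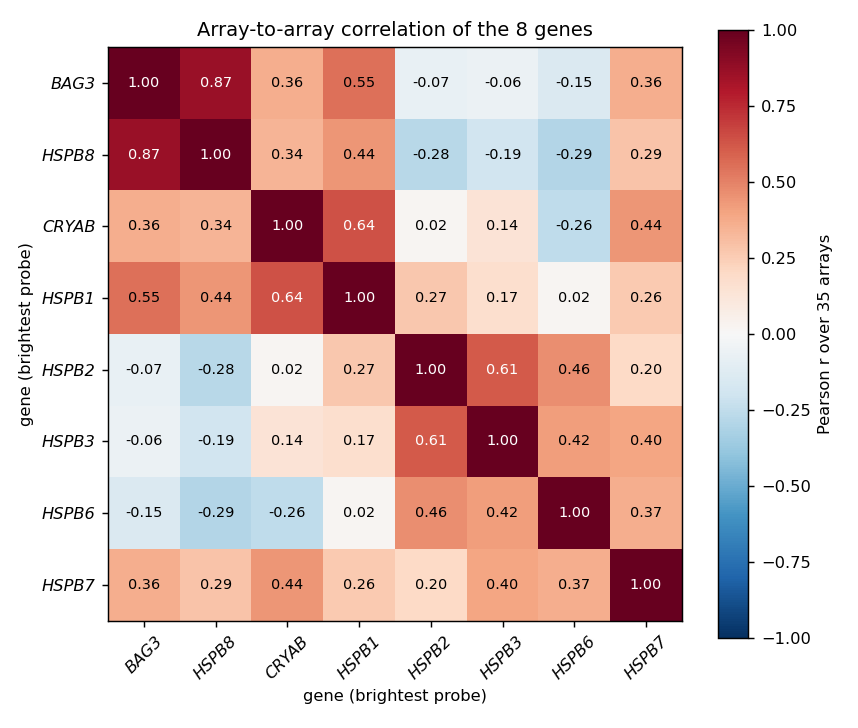
Pearson r over the 35 arrays for each pair of the 8 genes by their brightest probes, from blue (-1) to red (1), with the value in each cell. BAG3 with HSPB8 (0.87) is the tightest pair, followed by CRYAB with HSPB1 (0.64), HSPB2 with HSPB3 (0.61) and BAG3 with HSPB1 (0.55).

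Outside the family, the 2 genes most alike to each member were sought among 9768 others over the same 35 arrays, as a description. For BAG3 they were AMD1 (r = 0.86), an enzyme of polyamine synthesis, and ANKRD1 (r = 0.79), a titin-binding protein induced by stretch. For HSPB8 they were XIRP1 (r = 0.86), an actin-binding protein of the Z-disc region, and AMD1 again (r = 0.86). After the group means were subtracted, r was 0.87 for BAG3 with AMD1 and 0.77 with ANKRD1. For HSPB8 it was 0.90 with XIRP1 and 0.87 with AMD1, beside 0.86 for BAG3 with HSPB8. None of AMD1, ANKRD1 and XIRP1 was called between HS and TN (limma adjusted p from 0.214 to 0.883). HSPB3 was closest to MLLT11 (r = 0.81) and the adaptor TRAF4 (r = 0.81), both of which rose in HS, by 0.86 (adjusted p = 0.00293) and 0.53 (adjusted p = 0.00862). HSPB6 was closest to PLN (r = 0.74), phospholamban, the inhibitor of the slow muscle calcium pump, and to TNNI1 (r = 0.72), the slow troponin I. CRYAB was closest to PEA15 (r = 0.77) and SERP1 (r = 0.76), HSPB1 to FANCF (r = 0.67) and SPRY2 (r = 0.65), HSPB2 to TTL (r = 0.75) and MUM1L1 (r = 0.72), and HSPB7 to MYH10 (r = 0.70) and TMEM63B (r = 0.65).

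Of 17 partners and clients of chaperone-assisted selective autophagy, 16 were measured, 2 were higher and 2 lower in HS (7.73% and 8.30% of all kept probes), with a median of -0.02, the same as over all kept probes. STUB1, the ligase of the complex, fell by 0.22 on the log2 scale (SE 0.07, adjusted p = 0.0214, above the TN mean of the breed in 4 of 17 HS arrays), and was not called with spike-in scaling (-0.10, adjusted p = 0.345), array brightness (-0.10, adjusted p = 0.319) or the leukocyte mean (-0.08, adjusted p = 0.499). TTN, the giant spring titin, fell by 0.37 (SE 0.11, adjusted p = 0.0170), while its other probe was not called. VIM, an intermediate filament of connective tissue cells and young muscle, rose by 0.74 (SE 0.22, adjusted p = 0.0190) by its brightest probe, and its other probe was also called higher. DES, desmin, rose by 0.24 (SE 0.05, adjusted p = 0.00310) by its brightest probe alone, none of its other 3 probes was called, and the direction turned with the processed signal scaled to the 75th percentile (-0.003). In the fit corrected for the leukocyte mean, WIPI1, a protein of the forming autophagosome, was the only gene of this list called (0.27, adjusted p = 0.0119), and in the fit corrected for array brightness it was DES (0.19, adjusted p = 0.0439). HSPA8, the constitutive HSP70 of the complex, was at -0.09 (adjusted p = 0.446), and FLNC, its client filamin C, at -0.22 (adjusted p = 0.115), called with scaling to the 75th percentile (-0.33, adjusted p = 0.0134).

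Of the 9 heat shock factors and other BAG proteins, 5 were measured and none was called (5 probes, limma adjusted p from 0.0626 to 0.977), the nearest being HSF1 at -0.15, which was called with scaling to the 75th percentile (-0.18, adjusted p = 0.0339). Of 18 other targets of heat shock factors, 14 were measured and 2 were higher in HS (7.73% of all kept probes), with a median of 0.14 beside -0.02 over all kept probes. The count was 4 with array weights, which added HSP90AA1 (0.35, adjusted p = 0.0202) and AHSA1 (0.14, adjusted p = 0.0435), and 1 when corrected for the leukocyte mean. These counts rest on the brightest probe of each gene. Without the weights that of HSP90AA1 was at 0.27 (limma adjusted p = 0.128), but 3 of its 7 other probes were called higher. None of the 4 other AHSA1 probes was called higher. The 2 genes called without weights were HSP90AB1 (0.43, adjusted p = 0.000497), the constitutive cytosolic HSP90, and HSPE1 (0.30, SE 0.07, adjusted p = 0.00244), the mitochondrial co-chaperonin HSP10. Each was above the TN mean of the breed in 17 of 17 HS arrays. HSPE1 was not called with the processed signal (0.19, adjusted p = 0.0665) or when corrected for the leukocyte mean. Whether these 2 differed from the members in response was not tested. Of the 4 other small heat shock proteins (CRYAA, HSPB9, ODF1 and HSPB11), none was measured. ODF1 had 1 probe, which did not pass the filter on dim probes. No probe was assigned to CRYAA, HSPB9 or HSPB11, although CRYAA may be the target of O6250.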

How the data were processed

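The authors hybridised Cy3-labelled cRNA to one-colour Agilent porcine arrays and read them with Agilent Feature Extraction 10.10.1.1. The deposited scanner files hold, for each spot, the median pixel intensity that the study also used, with no normalisation. The deposited value table holds log2 values after quantile normalisation by the authors, with 1 row per probe they kept.

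From the intensities of the 60306 non-control spots per array, quantile normalisation was repeated with limma 3.58.1 in R 4.3.3, outlier spots (105 over all arrays) were set missing, and spots of a probe were averaged. No spot was saturated. Temperature and breed entered an additive model, with 6 group means for the within-breed and interaction tests, and p-values were adjusted by Benjamini-Hochberg over all 41517 kept probes. The random terms of the study (pen, slaughter day and parents) are missing from the labels, so the models here lack them and p-values measure the spread between these arrays only. The number of arrays limits the precision. The scripts were tested on simulated data. Slide and scan coincide in 5 batches: 4 hold 4 HS and 4 TN arrays and 1 holds 1 HS and 2 TN arrays.

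Symbols came from the RefSeq table of Sscrofa11.1, the gene ID or the file's name (25247 probes). The members and lists were chosen with earlier results of these data known. All probes of the members were named, each gene was represented by the brightest of its kept probes, the 2 genes of highest r stood beside each member, and partner genes were named where called or central to the complex. Alternatives were other scalings, background correction, filters, the value table, slide, array weights and covariates.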

Additional observations from a re-analysis of the deposited data

Results flagged for a closer look

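The 48 sets of values of 1 gene in 1 group were searched for an array that stands apart from the rest by Dixon's criterion, and 6 were found, where chance gives about 1 in 20. Creole TN replicate 2 stood apart in BAG3 (14.68, the next array at 13.74) and in HSPB8 (18.33, the next at 16.89). F1 HS replicate 2 stood apart in HSPB1 (16.64, the next at 15.65) and in HSPB8 (17.78, the next at 16.95). Large White HS replicate 5 was low in HSPB2 (13.01, the next at 13.50), and F1 TN replicate 1 was low in HSPB7 (14.29, the next at 14.61).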

How the results depend on the processing

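The members' temperature values rest on 35 arrays of one tissue sampled on different days. Array brightness and the mean of the leukocyte markers moved with HS. Litter and pen were not modelled. Each array came from a different pig and the labels do not identify littermates, so no paired analysis was possible. The labels also give no replicate numbers, and those used here are names in the order of the samples. Spike-in scaling and the leukocyte covariate were chosen after seeing the data. The causes of the changes below were not tested.

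Between HS and TN, 0 of the 24 probes were called as reported, against 1 with median scaling, 3 with array weights, 1 with array brightness as a covariate and 2 with spike-in scaling. Among all 41517 kept probes, 6654 were called as reported and 6653 with median scaling. With array weights 9059 were called, with array brightness 2092, with spike-in scaling 4662 and with the leukocyte covariate 1874. Leaving out 1 array at a time gave 0 to 1 of the 24 and 0 to 1 of the 12, and between Creole and Large White 0 to 1 of the 24. Over all kept probes the share of higher calls moved with the scaling, from 3209 of 6654 to 2539 of 9320 (75th percentile), 2733 of 7286 (processed signal), 3773 of 6653 (median) and 4034 of 4662 (spike-in). Among the lists, scaling to the 75th percentile gave 1 lower heat shock factor or BAG gene, 1 higher autophagy gene and 1 lower target of heat shock factors (HSPA4L, -0.19), and the processed signal gave 1 higher autophagy gene, 1 higher target and DES at -0.0030. Of settings added for the lists after seeing the data, array weights gave 4 higher targets, the leukocyte covariate 1 higher target and 1 higher and 0 lower autophagy genes, brightness 1 higher and 0 lower, and spike-in scaling 1 lower.

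Directions turned only in values that were not called, apart from DES. Between HS and TN, BAG3 was 0.0086 with spike-in scaling, and HSPB7 was -0.027 (75th percentile), -0.042 (processed signal) and -0.075 (leukocyte covariate). Within Creole, BAG3 was -0.058 (75th percentile), -0.077 (processed signal), -0.028 (brightness) and -0.11 (mean over its probes), HSPB6 was 0.033 (median), 0.011 (slide as a block), 0.24 (brightness) and 0.092 (spike-in), and HSPB8 was 0.0036 (slide) and 0.057 (weights). Within Large White, spike-in scaling gave 0.12 for BAG3, 0.15 for HSPB6, 0.077 for HSPB7 and 0.0094 for HSPB8, brightness gave -0.0038 for CRYAB and 0.16 for HSPB6, and the 75th percentile gave -0.015 for HSPB1. For Creole minus Large White, BAG3 was -0.0031 (median), -0.010 (weights), -0.0044 (TN arrays alone) and -0.031 (spike-in). For F1 minus Large White, spike-in scaling gave -0.054 for HSPB2, -0.022 for HSPB6 and -0.022 for HSPB7, and TN arrays alone gave -0.13 for HSPB6. For F1 minus Creole, CRYAB was -0.0012 (spike-in), HSPB1 0.0094 (slide) and 0.023 (weights), and HSPB6 -0.010 (TN arrays alone).

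With 1 array left out, HSPB6 ran from -0.0060 to 0.12 between HS and TN. Within Creole, BAG3 ran from -0.020 to 0.22, HSPB6 from -0.17 to 0.041 and HSPB8 from -0.15 to 0.23. Within F1, HSPB7 ran from -0.21 to 0.066. Within Large White, BAG3 ran from -0.16 to 0.024, HSPB6 from -0.32 to 0.058, HSPB7 from -0.22 to 0.090 and HSPB8 from -0.21 to 0.0034. BAG3 ran from -0.025 to 0.095 for Creole minus Large White, and for F1 minus Creole CRYAB ran from -0.013 to 0.10, HSPB1 from -0.11 to 0.049 and HSPB2 from -0.035 to 0.019. Apart from leaving out 1 array, 883 values of members counted as unchanged, 33 turned direction, 7 gained a call and 29 within a slide moved. Tested values were unchanged if they kept their direction and their side of the threshold. Interaction p-values have no direction, so only the threshold counted. Within a slide no test was run, and unchanged values lay within the within-group SD of the reported value, whatever their direction. The TN arrays alone were among these settings. Over 13 settings that keep all arrays, the call of HSP90AB1 was lost in 0, those of HSPE1, TTN and VIM in 2 each, that of STUB1 in 3 and that of DES in 4.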
